A study of Mus musculus with 8 samples.

Results

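The integrins and focal adhesion adaptors are a set of 37 genes listed by name: 26 integrin subunits, 10 adaptor proteins of the adhesion complex and the ligand osteopontin. A gene entered through the probe set whose symbol in the platform annotation was its own, and where a gene had several, the one of highest mean was to be used. Of the 37, 33 had a probe set, 1 each, among 19505 genes with a symbol. Itga1, Itga10, Ptk2 and Spp1 matched no probe set by symbol, gene identifier or RefSeq accession and were not analysed here, so 24 integrin subunits and 9 adaptors remained.

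Whole uteri of 8 wild-type C57BL/6J mice were collected in the morning at day 4.5 of pseudopregnancy, the hormonal state that follows mating with a vasectomized male, in which no embryo is present. The 4 exposed mice inhaled electronic cigarette aerosol, 2 puffs each minute over sessions of 3 hours. The liquid was propylene glycol and vegetable glycerin in a ratio of 55 to 45 with 24 mg/mL nicotine and no flavouring, heated by a device set to 245 °C. Mice were exposed before mating, 5 days weekly over 4 weeks, and on every day from the mating plug to collection, whereas the 4 sham mice received room air. Every array came from a different mouse, and the sources used here state no age. No group that breathed aerosol without nicotine was analysed here, so nicotine and its carrier cannot be told apart. The comparison asks whether inhaled aerosol changes uterine transcript levels near the time at which the uterus can accept an embryo.

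Integrins are receptors of 2 chains, an alpha and a beta subunit, that bind matrix proteins or counter-receptors outside the cell. Inside, the beta tail is bound by talins and kindlins, which switch the receptor to its active form. ILK with its partner parvin, paxillin, vinculin and focal adhesion kinase then link the receptor to actin and to signalling. In the uterus, integrins of the lining epithelium and the stroma are known as receptors for osteopontin and fibronectin at attachment, and those of the muscle layer anchor the contractile cells to their matrix.

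Values are log2 expression, so that a difference of 1 is a 2-fold change, and group values are means ± SD of 4 mice. A level reports 1 probe set, whose brightness depends on its sequence as well as on the transcript, so levels of different genes were not ranked against each other. The median of all probe sets was 7.08. Markers of the labelled tissue were measured in both groups, with means in sham mice of 11.2 for the uterine homeobox gene Hoxa10, 10.98 for the epithelial cadherin Cdh1 and 12.9 for smooth muscle actin Acta2. Arrays correlated with the other 7 at a mean r of 0.986 to 0.987, except exposed mice 2 (0.982) and 4 (0.977), which stood apart from the rest. Results were therefore also computed without these 2 mice, a choice made after seeing the data.

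Differences within the set went both ways and were mostly small. Of 33 measured members, 20 had a higher and 13 a lower mean after exposure. The median difference was 0.02, beside 0.0014 over all 22206 probe sets. By class, 10 of 16 alpha subunits had higher means (median difference 0.05), as had 7 of 8 beta subunits (0.02) and 3 of 9 adaptors (-0.06). In limma's test, 0 members and 0 of all probe sets passed a Benjamini-Hochberg adjusted p of 0.05 over the array, the smallest adjusted p of any probe set being 0.838. At an unadjusted p under 0.05, 4 members were reached, Itgb8 with a higher mean and Itga7, Vcl and Fermt3 with lower means, where 5.42% of all probe sets reached that level (2.91% with higher and 2.5% with lower means). No member had all exposed values above all sham values, and 2, Vcl and Itgb1, had all of them below. Over the array, groups did not overlap for 2.73% of probe sets (1.38% above and 1.35% below). For single genes, an exact two-sided permutation test over the 70 assignments of mice to groups was used, which cannot give a p below 0.0286. It was added after the limma values were seen and is not adjusted for the number of genes. Groups without overlap always give this smallest p. Its value for Vcl and Itgb1 therefore repeats their lack of overlap and adds no support. Itgb8, Itga7 and Fermt3 did not reach 0.05. None of these members can therefore be called changed over the whole array, and the values below describe the 8 mice.

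**Figure D1:**
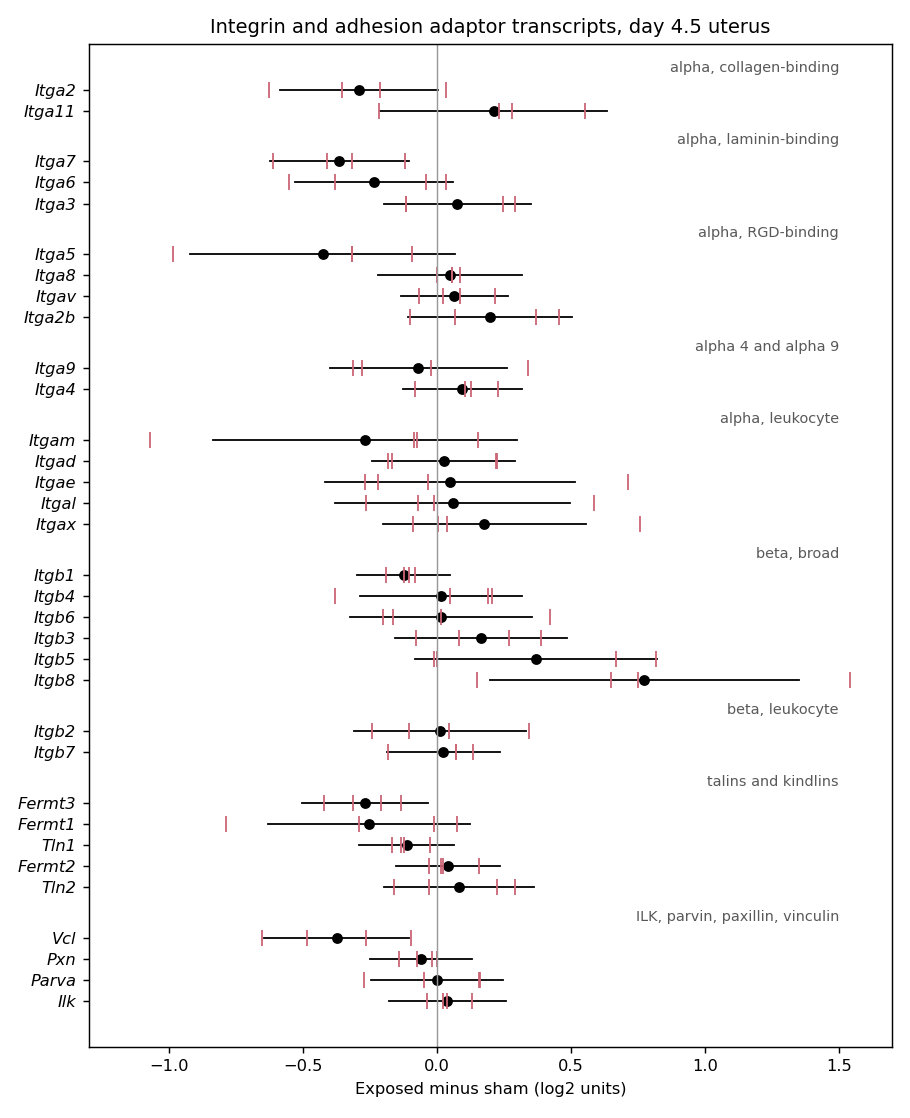
Difference between exposed and sham mice on the log2 scale for the 33 measured members, grouped by class. Points are differences of group means, lines are 95% confidence intervals from limma, and red ticks are the 4 exposed mice relative to the sham mean. The intervals of Itgb8, Itga7, Vcl and Fermt3 leave out 0. Ticks carry no mouse number. By the values, exposed mice 2 and 4 give many of the outermost ticks.

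The extremes of the set were Itgb8 at the higher end and Vcl, Itga7 and Itga5 at the lower. Sequence upstream of the start site is shown for Itgb8, for Vcl and for Itgb1, which gave the widest higher difference and the 2 members whose groups did not overlap. Each run holds the 250 bases before the RefSeq start on build GRCm38.p6, 5′ to 3′ on the gene's own strand. Capitals mark matches on either strand to the CArG box, bound by serum response factor in muscle and cytoskeletal genes, to GAGGAA, a core bound by PU.1, or to GGGCGG, the core of SP1 sites.
Itgb8, chr12:119238277-119238526, minus strand: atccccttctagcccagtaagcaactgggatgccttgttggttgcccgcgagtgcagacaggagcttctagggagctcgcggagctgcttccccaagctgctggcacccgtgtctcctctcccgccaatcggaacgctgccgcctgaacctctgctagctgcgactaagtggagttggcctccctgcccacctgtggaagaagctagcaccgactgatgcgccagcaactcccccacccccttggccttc
Vcl, chr14:20929148-20929397, plus strand: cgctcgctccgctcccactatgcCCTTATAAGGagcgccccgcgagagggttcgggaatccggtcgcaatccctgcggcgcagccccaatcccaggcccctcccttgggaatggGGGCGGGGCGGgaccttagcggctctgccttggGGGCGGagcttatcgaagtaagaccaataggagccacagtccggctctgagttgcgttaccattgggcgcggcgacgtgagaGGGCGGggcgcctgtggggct
Itgb1, chr8:128685404-128685653, plus strand: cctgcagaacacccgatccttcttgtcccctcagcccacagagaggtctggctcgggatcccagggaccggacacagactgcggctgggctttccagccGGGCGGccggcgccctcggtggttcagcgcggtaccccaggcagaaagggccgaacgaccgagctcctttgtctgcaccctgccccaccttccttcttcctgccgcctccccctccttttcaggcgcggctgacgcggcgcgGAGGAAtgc
The Vcl window held a CArG box at -227 to -218 from the start and 4 matches to GGGCGG, of which the first 2 share a base. The Itgb1 window held GGGCGG at -151 to -146 and GAGGAA at -9 to -4, and the Itgb8 window held no match to any of the 3. Promoter entries existed for 25 of the 37 members, as 29 windows. Among these windows 3 (of Vcl, Fermt2 and Itgb6) held a CArG box, 10 GAGGAA and 11 GGGCGG. Of all 32851 windows in the table, 1.47% held a CArG box, 23.3% GAGGAA and 32.7% GGGCGG. Such a match describes the letters and is not evidence of binding.

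Among beta subunits, Itgb8 showed the widest difference between groups. Its product pairs with the alpha v subunit and is known for releasing active TGF-beta from its latent complex. Sham mice 1 to 4 had values of 9.20, 8.62, 9.20 and 8.86, and exposed mice 1 to 4 had 9.12, 9.62, 9.72 and 10.5. Exposed mouse 4 lay highest and exposed mouse 1 was within the sham range, while the other 3 exposed mice lay above all sham mice. The means were 8.97 ± 0.28 in sham and 9.74 ± 0.58 in exposed mice, a 1.71-fold higher mean (log2 difference 0.77 ± 0.26 SE, exact permutation p = 0.0857, adjusted limma p = 0.838). Leaving out any 1 mouse gave differences of 0.52 (without exposed mouse 4) to 0.98 (without exposed mouse 1), each at an unadjusted limma p under 0.05. Without both exposed mice 2 and 4, the difference was 0.45 and no longer at that level, nor was it in an ordinary linear model of all mice.

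Itgb5, which pairs with alpha v as a receptor for vitronectin, had high values in the same 2 mice that stood apart. Sham mice had 8.15, 8.22, 8.23 and 8.63, and exposed mice 1 to 4 had 8.31, 8.97, 8.30 and 9.12. Exposed mice 2 and 4 were above all sham mice and exposed mice 1 and 3 within the sham range. The difference of 0.37 ± 0.20 (SE) did not pass (exact permutation p = 0.171), and it was -0.0050 without exposed mice 2 and 4.

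Itgb3, the subunit that forms the alpha v beta 3 receptor of the receptive lining and the fibrinogen receptor of platelets, had values of 8.90, 8.67, 8.43 and 8.36 in sham mice. Exposed mice 1 to 4 had 8.51, 8.67, 8.98 and 8.86. The groups overlapped throughout, with a difference of 0.16 (95% interval -0.16 to 0.49). Itgb6, the epithelial partner of alpha v, had means of 7.82 ± 0.20 and 7.84 ± 0.29, and Itgb4, the hemidesmosome subunit that pairs with alpha 6, had 7.57 ± 0.12 and 7.58 ± 0.27. Their 95% intervals ran from -0.32 to 0.36 and from -0.29 to 0.32.

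Itgb1, the common partner of most matrix-binding alpha subunits, varied least among the beta subunits. Sham values were 11.57, 11.57, 11.49 and 11.62, and exposed mice 1 to 4 had 11.44, 11.46, 11.37 and 11.48. All exposed mice lay below all sham mice, though exposed mouse 4 lay next to sham mouse 3. The difference was -0.13 ± 0.08 (SE), a 1.09-fold lower mean (exact permutation p = 0.0286, the smallest possible). Limma gave no call at an unadjusted p under 0.05, whereas the ordinary linear model, which takes no variance from other probe sets, did. That model called 5 members, all with lower means, where 4.83% of all probe sets reached that p.

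**Figure D2:**
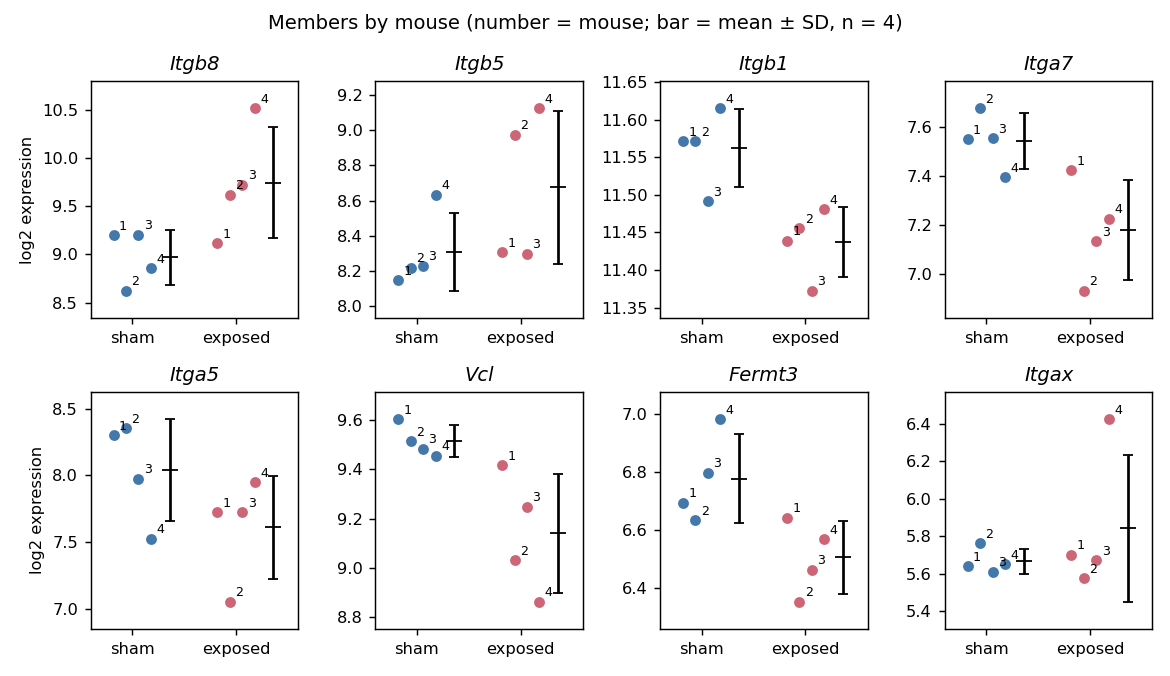
Log2 expression of 8 members in each mouse, with the mouse number beside each point and bars for the mean ± SD of 4 mice. Vertical axes are cut to the range of each gene. Vcl and Itgb1 show no overlap between groups, Itgb8 and Itgb5 are highest in exposed mouse 4, and Itgax is high in that mouse alone.

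Alpha subunits that bind laminin included the member of lowest limma p. Itga7, the laminin receptor subunit of skeletal and smooth muscle, had sham values of 7.55, 7.67, 7.55 and 7.39. Exposed mice 1 to 4 had 7.42, 6.93, 7.13 and 7.22. Only exposed mouse 1 lay within the sham range and the other 3 lay below it. The mean was 1.29-fold lower (7.54 ± 0.12 against 7.18 ± 0.20, log2 difference -0.36 ± 0.12 SE, exact permutation p = 0.0571, adjusted limma p = 0.838). Differences ran from -0.45 to -0.28 with any 1 mouse left out, all at an unadjusted limma p under 0.05, and the difference of -0.26 without exposed mice 2 and 4 was not. Itga6, the epithelial and endothelial laminin receptor subunit, had sham values of 9.44, 9.58, 9.45 and 9.46 and exposed values of 9.52, 8.93, 9.44 and 9.10. Exposed mice 2 and 4 were low, and exposed mice 1 and 3 were close to the sham mice (difference -0.24 ± 0.13 SE, exact permutation p = 0.200). Itga3, also a laminin receptor subunit, had means of 8.11 ± 0.13 and 8.19 ± 0.22.

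Vcl, an adaptor, had a difference close to that of Itga7. Its product vinculin binds talin under tension and ties adhesions to actin. Sham values were 9.61, 9.51, 9.48 and 9.46, and exposed mice 1 to 4 had 9.42, 9.03, 9.25 and 8.86. Every exposed mouse lay below every sham mouse, exposed mouse 4 lowest and exposed mouse 1 nearest to the sham group. The mean was 1.30-fold lower (9.52 ± 0.06 against 9.14 ± 0.24, log2 difference -0.38 ± 0.12 SE, exact permutation p = 0.0286, adjusted limma p = 0.838). Each difference with 1 mouse left out, from -0.47 to -0.28, stayed under an unadjusted limma p of 0.05. Without exposed mice 2 and 4 the difference was -0.18 and did not.

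Smooth muscle, whose cells carry much Itga7 and Vcl transcript, was checked through 10 markers. All 10 had lower means in exposed mice, with a median difference of -0.18, and Synpo2 and Synm reached an unadjusted limma p under 0.05. The mean over these markers was 11.004, 10.95, 10.999 and 10.60 in sham mice 1 to 4. In exposed mice 1 to 4 it was 10.85, 10.28, 10.85 and 10.65. Their part in the values of Itga7 and Vcl was not tested. In whole uterus, fewer cells of a type and less RNA per cell cannot be told apart.

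RGD-binding alpha subunits, which recognise the arginine-glycine-aspartate sequence of fibronectin, vitronectin and osteopontin, differed in different ways. Itga5, the fibronectin receptor subunit, had sham values of 8.30, 8.36, 7.98 and 7.52 and exposed values of 7.72, 7.05, 7.72 and 7.95. The lowest value was that of exposed mouse 2, and sham mouse 4 lay below 3 of the exposed mice. The difference of -0.43 ± 0.22 (SE) did not pass (exact permutation p = 0.171) and ran from -0.60 without sham mouse 4 to -0.24 without exposed mouse 2. It reached an unadjusted limma p under 0.05 without sham mouse 4, without exposed mouse 4 (-0.54) and with array weights (-0.50), and adjusted limma p was 0.817 or more in these 3 fits. Itgav, the alpha v chain shared by beta 3, 5, 6 and 8, had sham values of 9.995, 9.86, 9.99 and 9.99 and exposed values of 10.04, 9.98, 9.89 and 10.17. Its groups overlapped, with a difference of 0.06 and a 95% interval of -0.14 to 0.26. Itga8, a stromal and muscle subunit that binds nephronectin, had means of 7.74 ± 0.24 and 7.79 ± 0.04.

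Itga2b, the platelet fibrinogen receptor subunit, had sham values of 8.14, 8.45, 8.42 and 8.47 and exposed values of 8.27, 8.74, 8.43 and 8.83. Exposed mice 2 and 4 lay above all sham mice, and the other 2 exposed mice lay among them. The difference was 0.20 ± 0.14 (SE, exact permutation p = 0.257) and was -0.02 without exposed mice 2 and 4. Of 6 measured platelet and megakaryocyte markers, 3 had higher and 3 lower means, with a mean over markers of 6.26 to 6.42 in sham and 6.15 to 6.46 in exposed mice. Their part in the value of Itga2b was not tested.

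The collagen-binding subunits measured were Itga2 and Itga11. Itga2, found on epithelium and platelets, had sham values of 7.66, 7.78, 7.84 and 7.77 and exposed values of 7.80, 7.14, 7.55 and 7.41. Exposed mice 2, 3 and 4 lay below all sham mice, and the difference of -0.29 ± 0.13 (SE) did not pass (exact permutation p = 0.114). Itga11, a fibroblast receptor for fibrillar collagen, had means of 5.71 ± 0.32 and 5.92 ± 0.32. Itga4, which with beta 1 binds VCAM1 and fibronectin, had sham values of 8.86, 8.80, 8.79 and 9.04 and exposed values of 8.9996, 8.79, 8.98 and 9.10. The groups overlapped, with a 95% interval of the difference from -0.13 to 0.32. Itga9, a tenascin receptor subunit, had means of 8.33 ± 0.14 and 8.26 ± 0.30.

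Integrins of leukocytes showed no call in either direction. Of the 7 subunits, 6 had higher and 1 a lower mean, and none reached an unadjusted limma p under 0.05. Itgb2, the common beta chain of phagocytes and lymphocytes, had means of 7.05 ± 0.20 and 7.06 ± 0.25, and Itgb7, the beta chain of gut-homing and intraepithelial lymphocytes, had 8.80 ± 0.07 and 8.82 ± 0.14. Itgal, the lymphocyte partner of beta 2, had 7.27 ± 0.30 and 7.33 ± 0.37. Itgad and Itgae, the latter a receptor for E-cadherin, had differences of 0.02 and 0.05. Itgae was highest in exposed mouse 1 (6.55, the other exposed mice 5.57 to 5.81).

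Single exposed mice set the spread of the myeloid alpha chains. Itgam, the complement receptor chain of macrophages and neutrophils, had sham values of 7.33, 7.48, 6.81 and 7.50 and exposed values of 7.43, 6.21, 7.21 and 7.196. Exposed mouse 2 lay lowest, and the groups overlapped, with a difference of -0.27 (exact permutation p = 0.486, 95% interval -0.84 to 0.30). Itgax, a chain of dendritic cells and macrophages, had sham values of 5.64, 5.76, 5.61 and 5.65 and exposed values of 5.70, 5.57, 5.67 and 6.42. Only exposed mouse 4 stood out, and without it the difference of 0.18 became -0.02. The 9 macrophage and monocyte markers had a mean of 7.35 in exposed mouse 2, the lowest of any mouse. Sham mice had 7.93 to 8.17, and exposed mice 1, 3 and 4 had 8.28, 7.89 and 7.78. Of these markers, 8 had lower means in exposed mice. The 6 measured neutrophil markers had a mean of 5.89 in exposed mouse 2, against 5.87 to 6.26 in sham mice. The 7 dendritic cell markers (5 with higher and 2 with lower group means) had 6.60 in exposed mouse 4, against 6.25 to 6.57 in sham mice. The natural killer markers (2 with higher and 5 with lower group means) had 6.84 in that mouse, against 6.00 to 6.33. Their part in these values was not tested.

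**Figure D3:**
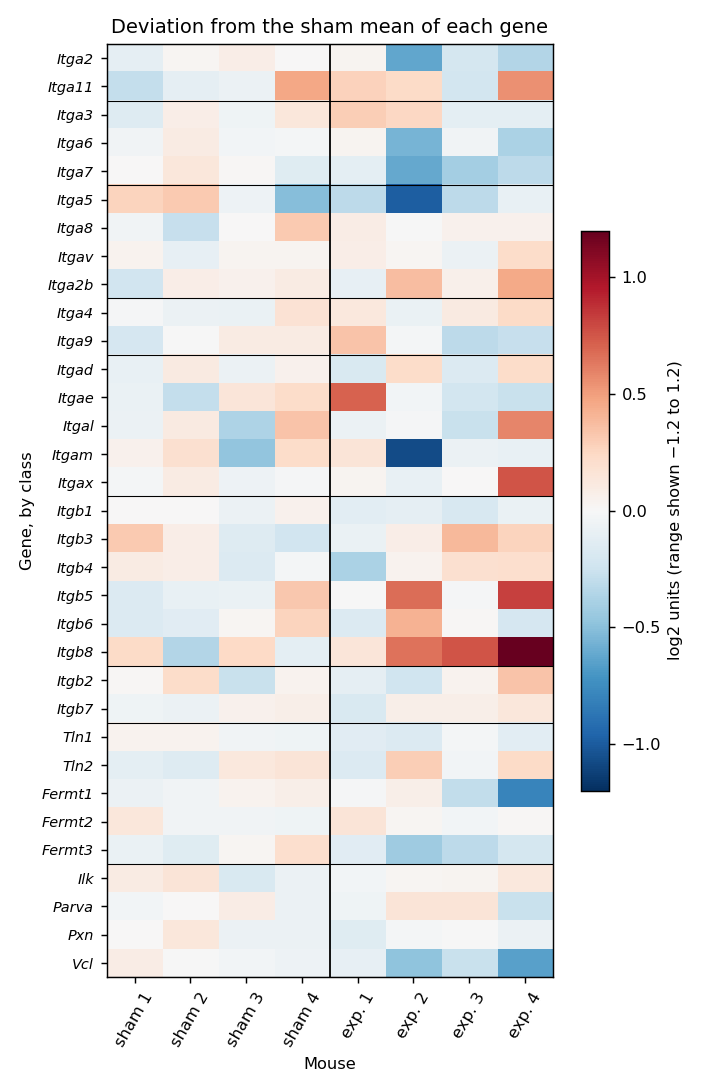
Deviation of each mouse from the sham mean of each gene, in log2 units, with the 33 measured members in rows by class and the 8 mice in columns. Colour saturates at 1.2, which Itgb8 in exposed mouse 4 exceeds. The strongest colours lie in the columns of exposed mice 2 and 4, such as Itgam and Itga5 in mouse 2 and Itgb8, Itgb5, Itgax and Fermt1 in mouse 4.

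Talins and kindlins, which activate integrins from inside the cell, included the fourth member at an unadjusted p under 0.05. Fermt3, the kindlin of blood cells, had sham values of 6.69, 6.63, 6.80 and 6.98 and exposed values of 6.64, 6.35, 6.46 and 6.57. Exposed mouse 1 lay just above sham mouse 2, and the other 3 exposed mice lay below all sham mice. The mean was 1.21-fold lower (log2 difference -0.27 ± 0.11 SE, exact permutation p = 0.0571, adjusted limma p = 0.838). It stayed under an unadjusted limma p of 0.05 in 4 of the 8 fits that left out 1 mouse, and the smallest difference was -0.20, without sham mouse 4. Of 6 general leukocyte markers 2 had higher and 4 lower means, and their mean ran from 7.77 to 8.20 in sham and from 7.58 to 8.16 in exposed mice. Their part in the value of Fermt3 was not tested.

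The other kindlins and the talins overlapped between groups. Fermt1, the epithelial kindlin, had sham values of 9.03 to 9.17 and exposed values of 9.09, 9.17, 8.81 and 8.31, the last in exposed mouse 4. The 7 measured epithelial markers had a mean of 8.53 in that mouse, against 9.01 to 9.35 in sham mice and 9.01 to 9.07 in the other exposed mice. In that mouse Krt18 was 9.18 (sham mice 8.83 to 9.13) and Epcam 8.90 (sham mice 8.71 to 9.34). The other markers lay below all sham mice there. Their part in the value of Fermt1 was not tested. Fermt2, the kindlin of most adherent cells, had means of 9.05 ± 0.09 and 9.09 ± 0.08. Tln1, the widely expressed talin, had 11.35 ± 0.05 and 11.24 ± 0.06 (difference -0.11, 95% interval -0.29 to 0.06), and Tln2 had 8.14 ± 0.16 and 8.22 ± 0.21.

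The ILK complex and paxillin showed small differences. Ilk, the pseudokinase at the centre of the complex, had sham values of 10.68, 10.73, 10.39 and 10.50 and exposed values of 10.54, 10.60, 10.61 and 10.70. All exposed mice lay within the sham range, with a difference of 0.04 and a 95% interval of -0.18 to 0.26. Parva, which joins ILK to actin, had means of 9.69 ± 0.07 and 9.69 ± 0.20, and Pxn, the paxillin scaffold, had 8.64 ± 0.10 and 8.58 ± 0.06. The 95% interval for Parva ran from -0.25 to 0.25, so equal levels are not shown.

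Between mice, the exposed group was the more variable for most members. The SD was larger in exposed mice for 25 of 33 members, and its median over members was 0.13 for sham and 0.24 for exposed mice. Over all probe sets, it was larger in the exposed group for 65.8%, with medians of 0.134 and 0.176. The count of members at an unadjusted p under 0.05 moved with single mice: it was 8 without exposed mouse 1, where 11.5% of all probe sets reached that level. The 4 that joined were Itga2, Itga6, Itga2b and Itgb5. Without exposed mice 2 and 4 together it was 0, where 3.98% of all probe sets reached that level. That fit has fewer exposed mice and so less power to reach it.

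Subunits that pair in known receptors were compared over the 8 mice in 12 pairs outside the beta 1 family. Pearson's r was above 0 in 8 pairs and below 0 in 4. The pair with the smallest p was Itgax with Itgb2, at r = 0.76 (exact two-sided permutation p = 0.0016, 0.0196 after Benjamini-Hochberg adjustment over 12 pairs), and Spearman's rho was 0.83 (exact permutation p = 0.0154, adjusted 0.185). Without the 2 mice farthest from the median of Itgax, exposed mouse 4 and sham mouse 2, r was 0.63 over 6 mice (exact permutation p = 0.185). With any 1 mouse left out, r ran from 0.75 to 0.83, and the pair no longer passed adjustment without sham mouse 2, exposed mouse 2 or exposed mouse 4 (adjusted exact permutation p = 0.157, 0.190 and 0.271).

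No other pair passed adjustment. Itgal with Itgb2 gave r = 0.72 (exact permutation p = 0.0429, adjusted 0.257) and Spearman's rho = 0.62 (exact permutation p = 0.115, adjusted 0.465). That r was 0.50 without exposed mouse 4 and sham mouse 4. For alpha v, r with Itgb8 was 0.66 (exact permutation p = 0.0823, adjusted 0.263), with rho = 0.28 (exact permutation p = 0.508, adjusted 0.761), and it became -0.68 without exposed mouse 4 and sham mouse 2. Without exposed mouse 4 alone that r was 0.11, so the value with Itgb8 rests largely on this mouse. The sources used here name no batch, and values within batches could not be computed.

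**Figure D4:**
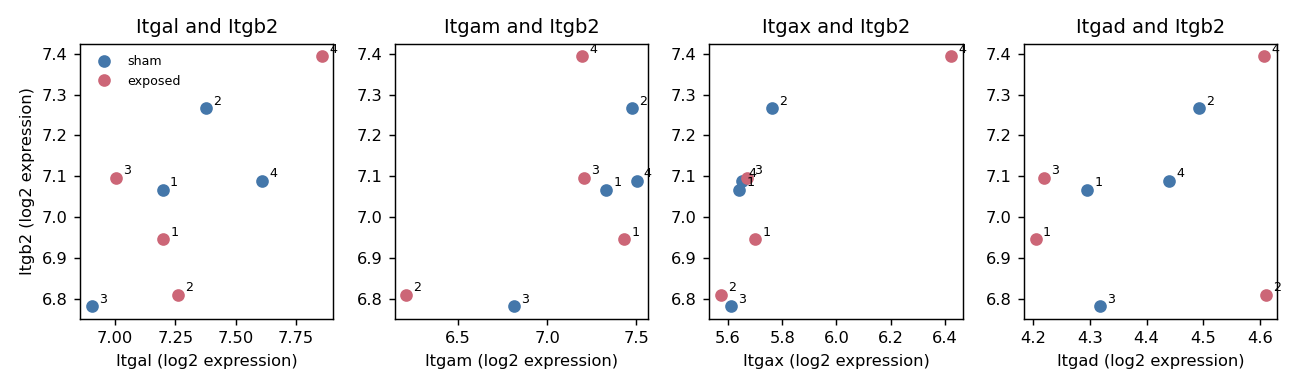
Log2 expression of Itgb2 against each of its 4 alpha partners, Itgal, Itgam, Itgax and Itgad, with 1 point per mouse, blue for sham and red for exposed, and the mouse number beside it. Axes are cut to the range of each gene. In the panel for Itgax, exposed mouse 4 lies far to the right and the other 7 mice lie between 5.57 and 5.76.

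Genes that act with the members were described through 6 lists. Their counts stand beside shares over the array: 5.42% of all probe sets reached an unadjusted limma p under 0.05, and groups did not overlap for 2.73%. Of 45 measured partners inside the adhesion complex, 16 had higher and 29 lower means, with a median difference of -0.05. At an unadjusted limma p under 0.05 were 3 with higher means, Fyn, a Src family kinase (0.28), Tns4, an epithelial tensin (0.57), and Sorbs3, which binds vinculin (0.28). Enah, an actin-regulating protein, had a lower mean at that level (-0.20), as had Lims1, the PINCH partner of ILK (-0.24), which was named after its values were seen. Fyn values were 8.68 to 8.79 in sham and 8.86 to 9.22 in exposed mice, without overlap. Groups also did not overlap for Enah and for the adaptor Nck2 (-0.19), the latter named after its values were seen, and both had all exposed values below all sham values.

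Collagen ligands had lower means throughout. All 9 measured genes of collagens I, III, IV, V and VI had lower means, with a median difference of -0.33, and Col6a2 (-0.39), Col6a3 (-0.62) and Col4a1 (-0.24) reached an unadjusted limma p under 0.05. Their mean was 9.50 in exposed mouse 2 and 9.78 in exposed mouse 4, against 10.14 to 10.37 in sham mice and 10.20 and 10.29 in the other exposed mice. The median difference was -0.07 without those 2 mice, and -0.17 without exposed mouse 2 alone. Adjusted p was 0.838 for these 3 genes in limma. For Col4a1 and Col4a2, all exposed values lay below all sham values, as for 1.35% of all probe sets. Col4a2 had 9.24 to 9.25 in sham mice and 8.43 to 9.19 in exposed mice.

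The remaining ligand and surface lists lay closer to 0. Laminins and basement membrane proteins had 5 higher and 10 lower means (median -0.07), none at an unadjusted limma p under 0.05. Ligands with RGD sites and other matrix proteins had 13 higher and 8 lower means (median 0.05). Among them Tgfbi, a matrix protein bound by integrins, had a difference of 0.72 (exact permutation p = 0.114), with 9.19 to 9.60 in sham mice and 9.33, 10.86, 10.07 and 10.36 in exposed mice 1 to 4. Tnc, the matrix protein tenascin C, had a difference of about that size in the other direction, -0.71 (exact permutation p = 0.171). Counter-receptors on other cells had 3 higher and 9 lower means (median -0.11), and L1cam, a cell adhesion molecule of the immunoglobulin family, had all exposed values (6.71 to 6.96) above all sham values (6.36 to 6.60). Surface partners such as tetraspanins had 4 higher and 8 lower means (median -0.07), and Cd9 was the 1 gene among them whose groups did not overlap (difference 0.13).

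**Figure D5:**
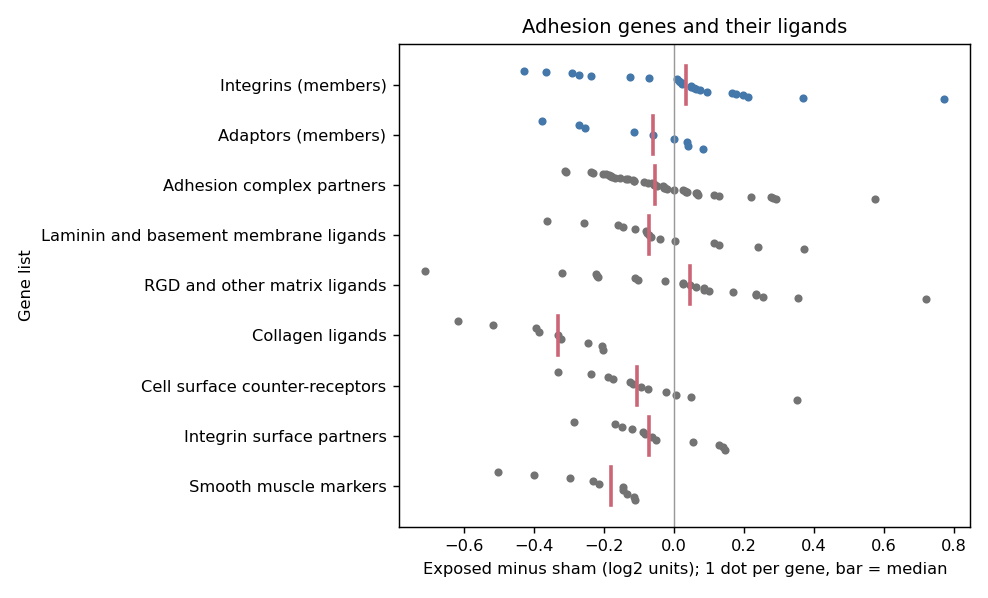
Exposed minus sham difference in log2 units for each gene of the 2 member groups (blue), the 6 ligand and partner lists and the smooth muscle markers (grey), with 1 dot per gene and a red bar at the median. The 9 collagen genes and the 10 smooth muscle markers all lie below 0, while the integrins lie on both sides with a median of 0.04.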

How the data were processed

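The authors deposited 1 table of log2 values for 22206 probe sets and 8 arrays of whole uterus, 1 mouse each. The log2 scale is read from the values, 2.75 to 13.6. Per the submitters' processing notes the software was Partek. How background was corrected and probes summarised is not stated there. Sorted columns differ by at most 0.0198, so arrays had been brought to a common distribution, which sets a shift shared by all genes to 0. Without a background level per probe set, signal over background could not be assessed, and the number of arrays limits precision.

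The platform annotation gave 1 symbol for 19572 probe sets, several for 0 and none for 2634. Group differences (exposed minus sham) were estimated by limma 3.58.1 under R 4.3.3 (lmFit, eBayes) without covariates over all probe sets, with Benjamini-Hochberg adjustment and a threshold of 0.05, after a check of the script on simulated data. Subunit pairs were tested by exact permutation over 40320 pairings. Exact two-sided permutation over 70 assignments of mice, run on each of 238 member, list and marker genes and not adjusted, was added after the limma values were seen. So was leaving out exposed mice 2 and 4 together. Upstream sequences are RefSeq's, build GRCm38.p6.

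Described in full were members at an unadjusted p under 0.05, without overlap, with 1 mouse apart or with the 5 largest differences, and the measured ones of 8 chosen by name (Itgav, Itgb3, Itgb1, Itga4, Itgb8, Ilk, Ptk2 and Spp1). Members and lists were chosen with earlier results of these data known. Alternatives were other normalizations, filters, variance models, array weights, a replicate block and leaving out mice. Limma p-values weigh a group difference against the spread between these mice, with variance also taken from other probe sets. Permutation p-values come from reassigning these mice or their pairings.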

Additional observations from a re-analysis of the deposited data

Results flagged for a closer look

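In 5 of 78 groups of 4 mice, covering the 33 measured members and the mean scores of 6 member groups, the value of a single mouse was separated from the rest beyond Dixon's 95% limit. Chance alone produces this in about 1 of 20 groups. Among sham mice, Itgav was 9.86 in mouse 2 (the others 9.99 to 9.995), and Itga6 was 9.58 in the same mouse (the others 9.44 to 9.46). Sham mouse 1 had the lowest Itga2b, 8.14 against 8.42 to 8.47, and the highest Fermt2, 9.18 against 8.99 to 9.01. Among exposed mice, Itgax was 6.42 in mouse 4 (the others 5.57 to 5.70). None of these 5 members reached an unadjusted limma p under 0.05.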

How the results depend on the processing

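Quantile normalization, median centring, filters, variance models and averaging of probe sets hardly alter the group means of the members by construction here, so an unchanged direction under them carries no information. In limma, 0 probe sets passed adjustment in any setting that kept all mice. Leaving out 1 mouse gave 3 to 8 members at an unadjusted p under 0.05 (4 with all mice). The share of all probe sets at that p ran from 3.27% to 11.5%, against 5.42% with all mice. Members without overlap numbered 2 to 7 (2 with all mice), where the share of all probe sets was 4.58% to 10.2%, against 2.73% with all mice. Leaving out 1 mouse also gave 0 to 1 probe sets past adjustment and a median member difference of -0.0144 to 0.0366. It gave 3 to 25 genes of the 6 ligand and partner lists at that unadjusted p (10 with all mice, lowest without exposed mouse 2 and highest without exposed mouse 1, where 3.69% and 11.5% of all probe sets reached it, against 5.42% with all mice), and 0 to 1 subunit pairs past adjustment. Without exposed mice 2 and 4, 0 members and 3 genes of those lists reached that p, where 3.98% of all probe sets did, and the differences were -0.0182 for Itga2b, -0.0050 for Itgb5 and -0.0006 for Ilk. Leave-one-out differences ran from -0.0230 to 0.0888 for Ilk and from -0.0171 to 0.266 for Itgax. With group-centred values 0 pairs passed (Itgax with Itgb2 r = 0.80, adjusted exact permutation p = 0.0723), and with Spearman's rho 0. The labels state no pairing by replicate number, and same-numbered deviations correlated at -0.24 to 0.085. Different-numbered mice ranged from -0.35 to 0.43, so these correlations cannot decide whether the numbers pair the mice. With the replicate block, 5 members reached an unadjusted p under 0.05, where 5.74% of all probe sets did. Itgb5 joined (limma adjusted p = 0.808), and 0 probe sets passed adjustment. Array weights also gave 5, where 5.4% of all probe sets reached that p, Itga5 joining (limma adjusted p = 0.858). The cause of these shifts was not tested.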
